A study of Mus musculus with 4 samples.

Results

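The cytosolic ribosomal protein genes encode the proteins of the large (Rpl and Rplp genes) and small (Rps genes and Rpsa) ribosomal subunits. They were taken as all gene names of those forms, without the S6 kinase genes (Rps6k) and without names marked as pseudogenes. This gave 88 of the 17252 genes of the table, of which 77 were named for a subunit protein, 46 of the large and 31 of the small subunit. The other 11 were paralogs of a subunit gene or, as for Rps19bp1, genes named after a subunit. The genes were measured by Drop-seq, which tags every captured transcript with the barcode of its cell and with a unique molecular identifier (UMI), in splenocytes of BALB/c mice bearing BCL1, a transplantable mouse B cell lymphoma. All mice received 10000 BCL1 cells and spleens were collected on day 13. There were 4 treatments: isotype control, anti-CD20 on day 4, anti-CD27 on days 5 to 8, and the combination of both antibodies on those days. Each treatment was 1 library, so that no test between treatments could be made and the ratios have no replicate check. How many mice were pooled in a library was not given in the sources used here, the single-cell protocol of the study places the injections on other days than the labels do, and the column names of the control say PBS where the labels say isotype control.

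Every cell needs ribosomes, and ribosomal protein mRNAs are among the most abundant of small lymphocytes. Their mRNAs belong to the 5′ terminal oligopyrimidine (TOP) class: transcription starts at a C followed by a stretch of pyrimidines, through which mTOR signaling controls their translation together with that of elongation factors and poly(A)-binding protein. Making ribosomes also needs the nucleolar machinery that transcribes and processes ribosomal RNA. Mature neutrophils carry little ribosomal RNA, and reticulocytes lose their ribosomes as they mature.

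The annotated start sites of some of these genes show the TOP sequence. RefSeq start sites (GRCm38.p6) were found for 57 of the subunit genes and 8 of the others. The first transcribed base was a C followed by at least 4 bases that were C or T in 13 of these 57 subunit genes (22.81%), in 0 of the 8 others and in 3.01% of the 27025 genes with a start in the same table. A run of at least 6 C or T bases on the transcribed strand that held the start base was found in 19 of the 57 (33.33%), in 0 of the 8 and in 8.48% of all genes. In each 30-base window below, the first transcribed base is letter 11, and capitals mark such a run of at least 6 pyrimidines where there is one. Windows of 5 subunit genes with the full TOP form are shown first, then that of Rps9, which is described in granulocytes below. Those of some paralogs and of Rps19bp1 follow.
Rplp2, stalk protein of the large subunit, chr7:141447641-141447670 (+): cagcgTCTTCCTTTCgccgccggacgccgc
Rps10, small subunit, chr17:27635225-27635254 (-): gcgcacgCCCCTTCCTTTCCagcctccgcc
Rpl14, large subunit, chr9:120571507-120571536 (+): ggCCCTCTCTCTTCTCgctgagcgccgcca
Rpl38, large subunit, chr11:114668570-114668599 (+): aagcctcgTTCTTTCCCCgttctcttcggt
Rpl35, large subunit, chr2:39005112-39005141 (-): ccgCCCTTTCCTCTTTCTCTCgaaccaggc
Rps9, small subunit, chr7:3704031-3704060 (+): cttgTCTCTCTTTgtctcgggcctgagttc
Rps27l, paralog of Rps27, chr9:66946076-66946105 (+): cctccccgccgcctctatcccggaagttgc
Rps27l, second start, chr9:66946403-66946432 (+): gggcttcagggtcactaacgggcctcgcag
Rpl22l1, paralog of Rpl22, chr3:28805498-28805527 (+): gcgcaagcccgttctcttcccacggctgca
Rpl36al, paralog of Rpl36a, chr12:69184048-69184077 (-): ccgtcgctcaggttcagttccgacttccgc
Rpl7l1, paralog of Rpl7, chr17:46782637-46782666 (-): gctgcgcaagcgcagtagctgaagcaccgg
Rps19bp1, a binding partner of Rps19, chr15:80264287-80264316 (-): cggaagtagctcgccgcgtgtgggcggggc
Rps9 has a run of 9 pyrimidines around its start but its first base is a T. A window without the run says only that these letters are not at the annotated start.

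The 1770 barcodes with 300 to 3000 detected genes were used: 340 of the isotype control, 501 of anti-CD20, 497 of anti-CD27 and 432 of the combination, with 440710 to 939565 UMIs per library. Where 4 values follow each other below, they stand in this library order. Medians ran from 1031 to 1396 UMIs per cell. No barcode sequence was shared between libraries among these cells. Haemoglobin transcripts took 1.18% to 2.09% of UMIs and mitochondrial transcripts 3.81% to 5.995%, both lowest in the isotype control, while immunoglobulin transcripts took 1.79% to 3.02% in the first 3 libraries and 0.300% in the combination. Cells were grouped into 20 clusters without using the ribosomal protein genes. Marker genes named 16 clusters in 10 classes and left 4 unnamed. Of the markers fixed for B-like cells 16 of 18 were in the table, of the erythroid 19 of 22, of the germinal center 11 of 12 and of the macrophage/monocyte 19 of 20. The markers in the table were all detected in each class with at least 20 cells in a library, except that 2 of 11 germinal center B markers had no UMI in the isotype control and 1 of 11 had none after anti-CD20.

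Ribosomal protein transcripts took up a similar share of all UMIs in the control and anti-CD20 libraries, a lower one after anti-CD27 and the lowest after the combination. They were 39446 of the UMIs in the isotype control, or 8.95% (95% Clopper-Pearson interval 8.87% to 9.04%), and 83891 after anti-CD20, or 8.93% (8.87% to 8.99%). They were 69696 after anti-CD27, or 7.67% (7.61% to 7.72%), and 58393 after the combination, or 6.36% (6.31% to 6.41%). The intervals cover counting error only, not the spread between mice or between cells. Per cell, the median share was 8.91%, 8.99%, 8.12% and 5.85% in the same order, and the middle 50% of cells of the combination lay between 3.02% and 9.35% while those of anti-CD20 lay between 6.19% and 12.4%. The cells of the libraries therefore overlapped widely. In pooled UMIs of a library, fewer cells of a type and less RNA per cell cannot be told apart.

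The share differed more between cell types than between libraries. Averaged over the libraries with at least 20 cells of the class, T-like cells had 11.04% ± 0.850 (SD, n = 4 libraries) and B-like cells 10.8% ± 0.593 (n = 3). The next classes were erythroid-like cells with 8.34% ± 0.185 (n = 2), effector CD8 T-like cells with 7.79% ± 0.589 (n = 2) and germinal center B-like cells with 7.18% ± 0.529 (n = 2). NK-like cells had 5.26% and macrophage/monocyte-like cells 5.25%, in 1 library each, and granulocyte-like cells had 1.46% ± 0.0218 (n = 2). The order of neighbours did not always repeat: T-like cells were above B-like cells in 2 of 3 libraries and below them in the other, and erythroid-like cells were above effector CD8 T-like cells in both libraries by log2 differences of 0.05 and 0.16 only.

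**Figure D1:**
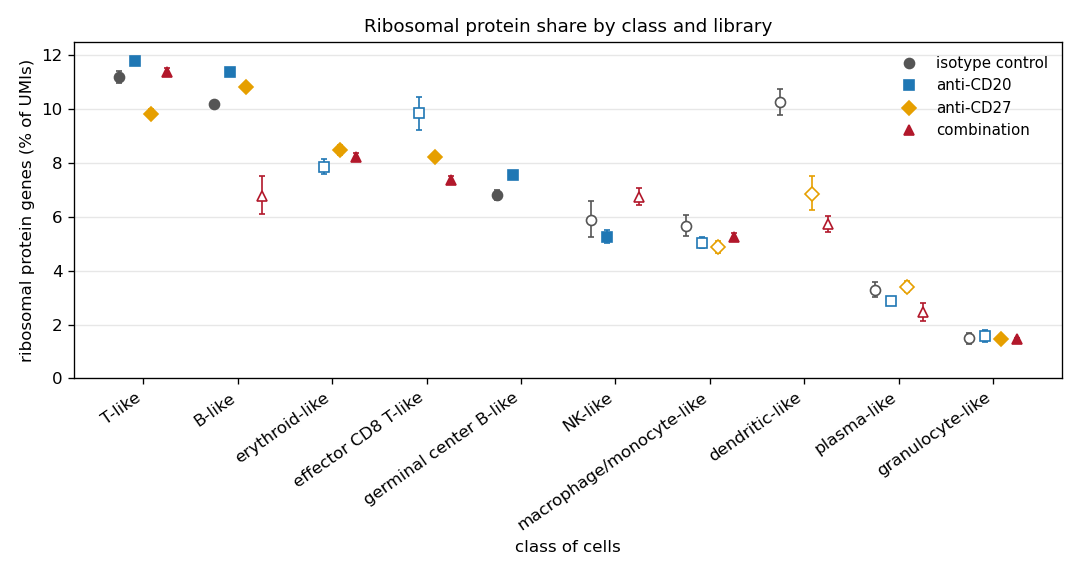
Percent of UMIs from the ribosomal protein genes (y axis, linear from 0) by class (x axis) and library (color and symbol), with exact 95% intervals of the pooled UMIs; open symbols have fewer than 20 cells and classes under 5 cells are not drawn. T-like and B-like classes with at least 20 cells sit at 9.83% to 11.8%, and granulocyte-like cells are the lowest class, at 1.45% and 1.48% where they have at least 20 cells.

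Among T-like cells the share split by cluster. The cluster led by Cd8b1, Dapl1, Cd8a and Lef1, genes of resting CD8+ T cells, had 13.6% after anti-CD20, 13.7% after anti-CD27 and 14.6% after the combination, and 15.7% in the 13 cells of the isotype control. The larger cluster led by Cd4, Bcl11b and Tcf7 had 9.81%, 11.3%, 9.38% and 11.1% in library order. Effector CD8 T-like cells, led by Ccl4, Gzmk and Gzmb, had 8.20% after anti-CD27 and 7.37% after the combination, so that in both of these libraries they were below these T-like clusters. A small T-like cluster led by Tnfrsf4, Ctla4 and Foxp3, genes of regulatory T cells, was lower than the effector class, with 6.10% in 9 cells after anti-CD27 and 6.04% in 10 cells after the combination, and had 7.88% in 14 cells after anti-CD20. In the same way, B-like cells, with 10.2% in the control and 11.4% after anti-CD20, were above the germinal center class, with 6.80% and 7.55%, in both libraries that held at least 20 cells of the latter, by log2 differences of 0.58 and 0.59.

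Granulocyte-like cells had the lowest share and also differed by cluster. The cluster led by the granule protein genes Camp, Ngp and Ltf, which are made by immature neutrophils, had 1.77% after anti-CD27 and 1.68% after the combination. The cluster led by Cxcr2, Csf3r and Il1b, genes of mature neutrophils, had 0.727% and 0.932%. In the Camp cluster, a Cd3 transcript was found in 40.0% of the 60 cells. Cd3 genes gave 246 UMIs per 1000000 (CPM) there and 2644 in T-like cells. Granulocyte-like cells with a Cd3 transcript in that cluster had a share of 1.44% and those without 1.93%, so the low share was also seen without them.

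Large and small subunit transcripts kept nearly the same balance in all libraries. Small subunit genes gave 46.8%, 46.8%, 47.0% and 46.6% of the ribosomal protein UMIs in library order. Among classes with at least 20 cells in a library, their part ran from 44.3% in erythroid-like cells of the combination to 52.0% (49.9% to 54.1%) in granulocyte-like cells of the combination. It was 50.3% (48.0% to 52.7%) in granulocyte-like cells after anti-CD27.

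From cell to cell the genes varied together. After each cell was thinned to 400 UMIs, which left out 17 shallower cells, the 1753 cells had 32.8 ribosomal protein UMIs on average, with an SD of 18.5 where sampling of UMIs alone gives 5.49. Small and large subunit UMIs per cell had a Spearman rho of 0.82 over these cells, 0.75 within T-like cells, 0.67 within B-like cells and 0.29 within granulocyte-like cells. These are descriptions over cells that share libraries, and in granulocyte-like cells there were only 4.50 such UMIs per cell.

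The first main comparison, combination against anti-CD20, asks what anti-CD27 adds to anti-CD20. Over all cells the log2 ratio of the ribosomal protein share, 6.36% against 8.93%, was -0.49 (exact conditional interval -0.50 to -0.47). The make-up of the libraries differed: B-like cells held 24.2% of UMIs after anti-CD20 and 0.561% after the combination, the germinal center class 30.3% and 0%, and granulocyte-like cells 1.27% and 17.1%. Of the difference of -2.56 percentage points, -1.75 went with the make-up of classes and -0.82 with differences within classes. This split used classes of any size, and a class absent from 1 library was given no difference within it. Among the small classes, B-like cells had 6.78% in 5 cells of the combination and 11.4% after anti-CD20. NK-like cells went the other way, with 6.75% in 12 cells of the combination and 5.26% after anti-CD20. The largest B-like cluster held 2 cells of the combination. With both libraries set to an equal class make-up the log2 ratio was -0.16, and with an equal make-up of clusters, an alternative added after the data were seen, it was -0.12. T-like cells were the named class that both libraries held in at least 20 cells. They had 11.4% and 11.8% (log2 ratio -0.05, -0.08 to -0.03), and with a lower limit of 500 genes per cell the ratio was 0.02. Their Cd4 cluster had a log2 ratio of -0.03 (-0.06 to 0.01) and their Cd8b1 cluster 0.09 (0.04 to 0.14). The Cd8b1 cluster, of higher share, held 25 of 130 T-like cells of the combination and 45 of 163 after anti-CD20. The part of this make-up in the T-like value was not tested.

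The upper limit on genes mattered for this comparison. Of the 51 barcodes with more than 3000 genes, 30 were in the combination and 5 in the anti-CD20 library, and those of the combination held 456755 UMIs, of which 11.3% were ribosomal protein transcripts. With these barcodes kept, the share of the combination became 8.00%, that of anti-CD20 9.09% and the log2 ratio -0.18.

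Most single genes were lower after the combination. A gene was counted when its CPM differed by at least 1.5-fold, among genes with at least 30 UMIs in the 2 libraries together. Of the 80 ribosomal protein genes with that many UMIs, 33 (41.25%) were lower after the combination than after anti-CD20 by this rule, against 19.9% of all 7572 such genes, and 0 were higher, against 17.1% of all genes. Their median log2 ratio was -0.49, with the middle 50% of genes from -0.70 to -0.36, and that of all genes was -0.08. With the barcodes above 3000 genes kept, 10 of the ribosomal protein genes were lower by the rule. The share of all genes at that setting was not counted, so this number has no background. Within T-like cells 9 of 63 (14.3%) were lower, against 12.4% of all genes there, and 1 was higher, against 11.4%.

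**Figure D2:**
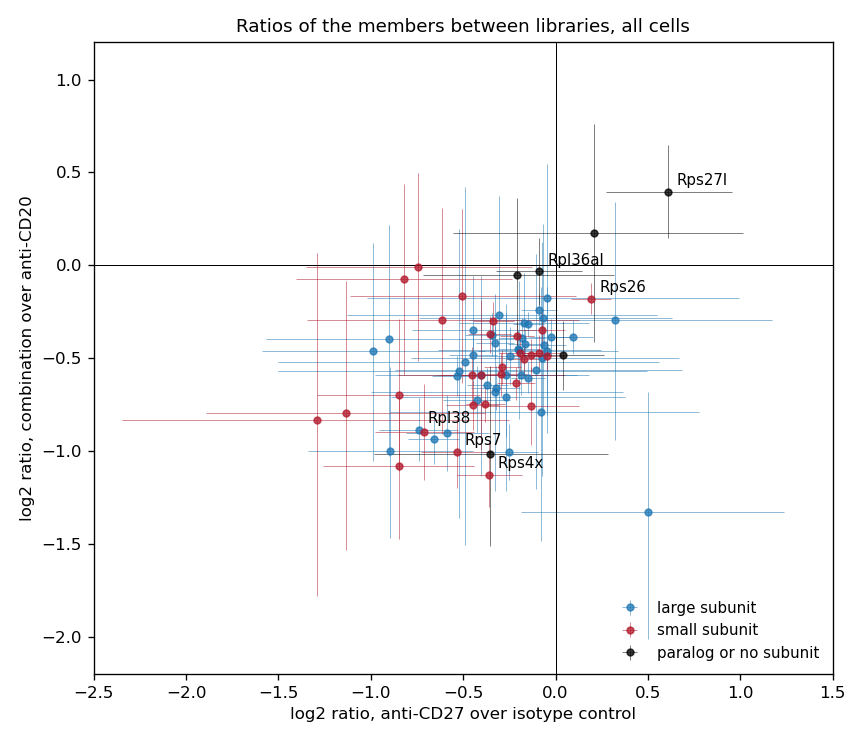
Log2 ratio of CPM of each of the 78 ribosomal protein genes with at least 30 UMIs in both comparisons, combination over anti-CD20 on the vertical axis and anti-CD27 over isotype control on the horizontal axis; lines are exact conditional 95% intervals and color marks large subunit, small subunit and paralog or non-subunit genes. 71 genes lie below 0 in both, and 2, Rps27l and Rps19bp1, lie above 0 in both. The median of all genes was also below 0, at -0.08 (vertical) and -0.11 (horizontal). The share of all genes below 0 in both was not counted.

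The abundant members moved together in this comparison. Rplp1, a protein of the ribosomal stalk and the member with the most UMIs, was at 4039, 4202, 3647 and 3370 CPM in library order. Rpl13a was at 3676, 3497, 3272 and 2613 CPM, Rps9 at 3540, 3478, 3064 and 2670, and Rps24 at 2950, 3575, 2622 and 2522. All 4 genes were lowest in the combination library. The 10 members with the most UMIs, among them also Rpl4, Rps3, Rpl32, Rps26 and Rps19, gave 36.5% of the ribosomal protein UMIs. Their log2 ratios of combination over anti-CD20 ran from -0.60 for Rpl4 to -0.18 for Rps26.

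The members with the lowest ratios were less abundant. Among members with at least 100 UMIs in the 2 libraries, these were Rpl9, Rps4x, Rps13, Rps3a3 and Rps7. Rps4x, the X-linked gene of a small subunit protein, was at 976, 940, 760 and 431 CPM in library order, and the log2 ratio of combination over anti-CD20 was -1.13 (-1.30 to -0.95). Rps7, another small subunit gene, was at 876, 748, 604 and 373 CPM, with a log2 ratio of -1.01 (-1.20 to -0.82). For both genes the combination library was the lowest and the isotype control the highest. Rpl9 had 100 UMIs in the 2 libraries (log2 ratio -1.33, -2.01 to -0.68), Rps13 had 263 (-1.08, -1.48 to -0.70) and Rps3a3 had 169 (-1.02, -1.51 to -0.54).

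The 5 members with the highest ratios held 4 of the genes that are paralogs or no subunit. They were Rps27l (0.39, 0.14 to 0.65), Rps19bp1 (0.17, -0.41 to 0.76), Rps23 (-0.01, -0.52 to 0.50), Rpl36al (-0.03, -0.21 to 0.15) and Rpl7l1 (-0.05, -0.47 to 0.36). Rps23, a protein of the decoding site, was the subunit gene among them, with 136 UMIs. The interval of Rps27l lay above 0, and those of the other 4 spanned 0. Not all paralogs were high: Rps3a3 was among the 5 lowest, and Rpl22l1 had -0.48 (-0.67 to -0.30).

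The second main comparison, anti-CD27 against isotype control, asks about anti-CD27 alone. The share was 7.67% after anti-CD27 and 8.95% in the isotype control, a log2 ratio of -0.22 (-0.24 to -0.21). Effector CD8 T-like, erythroid-like and granulocyte-like cells held 15.9%, 11.1% and 13.5% of UMIs after anti-CD27 and 0.336%, 2.36% and 3.07% in the isotype control. Of the difference of -1.28 points, -1.44 went with the make-up of classes and 0.16 with differences within them. The log2 ratio at an equal class make-up was 0.03. Here too the split used classes with few cells in 1 library. The germinal center class had 2 cells after anti-CD27, and the control had 4 erythroid-like and 1 effector CD8 T-like cells. The sign of the equal make-up value turned under 4 alternatives, among them no upper limit on genes (-0.03). B-like cells had 10.8% after anti-CD27 and 10.2% in the isotype control (log2 ratio 0.09, 0.06 to 0.12). T-like cells had 9.83% and 11.2% (-0.19, -0.23 to -0.14), and the Cd4 cluster of T-like cells alone had a log2 ratio of -0.06 (-0.12 to -0.01). The B-like and T-like values therefore had opposite signs, a difference that was not tested.

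Fewer ribosomal protein genes than in the first comparison were past the fold. Of 78 genes with at least 30 UMIs, 13 (16.7%) were lower after anti-CD27 by at least 1.5-fold, against 19.1% of all 6612 genes, and 1 (1.28%) was higher, against 14.3%. Their median log2 ratio was -0.28 and that of all genes -0.11. In B-like cells 5 of 63 were lower, against 15.4% of all genes, and 2 were higher, against 9.13%. In T-like cells 4 of 53 were lower, against 15% of all genes, and 1 was higher, against 15.2%. TMM scaling moved every gene of this comparison up by 0.17 on the log2 scale, which left a log2 ratio of -0.06 for the share.

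The lowest members in this comparison, with at least 100 UMIs, included Rpl7a (log2 ratio -0.89, -1.34 to -0.45), Rps13 (-0.85, -1.26 to -0.44), Rps18 (-0.85, -1.29 to -0.41) and Rpl38 (-0.74, -0.95 to -0.53). Rpl38 had the most UMIs of these, and was at 744, 873, 446 and 473 CPM in library order. The 2 libraries with anti-CD27 were thus below the 2 without it. The highest were Rps27l (0.61, 0.27 to 0.95), Rps26 (0.19, 0.09 to 0.30), Rplp0 (0.09, -0.02 to 0.20), Rpl22l1 (0.04, -0.18 to 0.26) and Rpl39 (-0.02, -0.15 to 0.10). Rps26, a protein at the mRNA exit channel, was at 2265, 2662, 2590 and 2352 CPM, so that it was lowest in the isotype control.

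**Figure D3:**
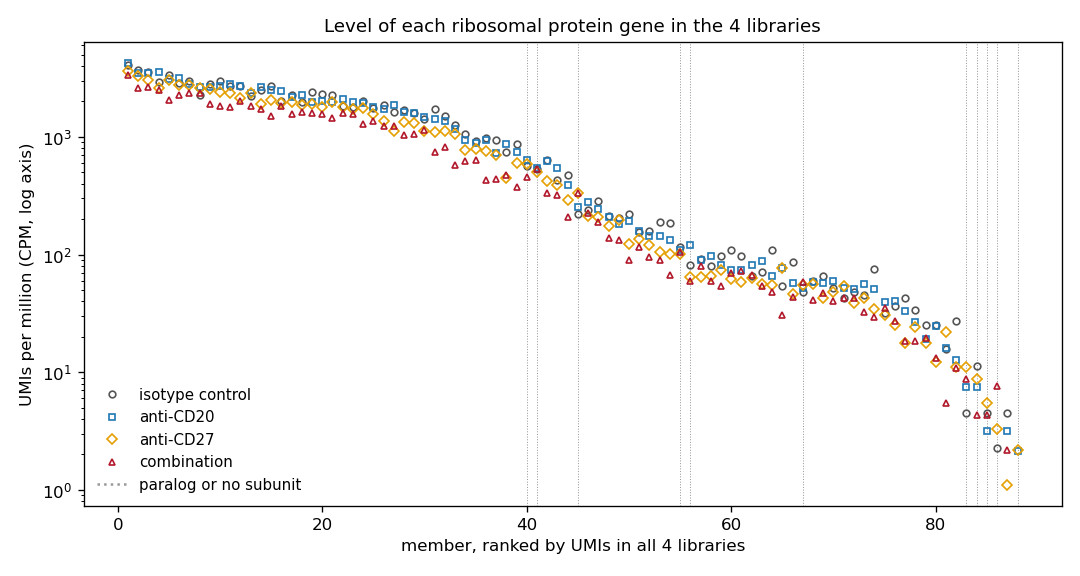
CPM (log axis) of all 88 members in the 4 libraries, ranked by their UMIs in all libraries; a value of 0 cannot be drawn, and dotted lines mark paralogs and non-subunit genes. 30 members are above 1000 CPM in every library, and the combination is below anti-CD20 for each of the 10 members with the most UMIs.

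In the side comparisons, anti-CD20 over isotype control had a log2 ratio of -0.00 (-0.02 to 0.01) over all cells, with no stable sign among the alternatives. Here 2 of 79 members were lower by the fold, against 12.9% of all genes, and 0 were higher, against 10.1%. Within classes, B-like cells had a ratio of 0.16 (0.13 to 0.19), germinal center B-like cells 0.15 (0.11 to 0.19) and T-like cells 0.08 (0.04 to 0.11). B-like cells of the anti-CD20 library had a median of 1694 UMIs and those of the isotype control 983. The part of this depth gap in the B-like value was not tested. In B-like cells 1 of 66 members was lower, against 16.5% of all genes, and 5 were higher, against 9.92%. In T-like cells 1 of 58 was lower, against 13.3%, and 3 were higher, against 14.7%.

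Combination over anti-CD27 had a log2 ratio of -0.27 (-0.28 to -0.25) over all cells. In T-like cells it was 0.21 (0.18 to 0.24). Effector CD8 T-like cells had -0.15 (-0.19 to -0.12), erythroid-like cells -0.05 (-0.09 to -0.00) and granulocyte-like cells -0.03 (-0.12 to 0.06), whose interval spanned 0. Over all cells 6 of 79 members were lower by the fold, against 11.2% of all genes, and 0 were higher, against 11.1%. In T-like cells 3 of 57 were lower, against 11.8%, and 2 were higher, against 11.5%. The comparisons share libraries in pairs and are not independent of each other.

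Rps9, a protein of the small subunit (chr7:3703993-3706897, plus strand, GRCm38), stood apart in granulocyte-like cells. It gave 10.7% (193 UMIs, interval 9.27% to 12.2%) of the ribosomal protein UMIs of these cells after anti-CD27 and 10.7% (244 UMIs, 9.50% to 12.1%) after the combination. In the other cells of named classes it gave 3.67% and 3.65%, so the log2 ratios were 1.54 and 1.56. The few granulocyte-like cells of the other libraries, 9 after anti-CD20 and 8 in the control, had 10.3% (6.30% to 15.6%) and 7.46% (4.24% to 12.01%). Rps9 gave 3.89% to 4.06% in B-like cells and 3.42% to 3.79% in T-like cells of the libraries with at least 20 of them, and 5.51% in macrophage/monocyte-like cells of the combination. Granulocyte-like cells were therefore above every other class with at least 20 cells in their library.

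The level of Rps9 itself was not high in granulocyte-like cells. There it was at 1575 CPM after anti-CD27 and at 1556 after the combination, while B-like cells had 4053 to 4616 CPM and T-like cells 3589 to 4232. The other members were lower still in proportion: without Rps9 their share of all UMIs was 1.32% and 1.29% in granulocyte-like cells of the 2 libraries. In the Cxcr2 cluster Rps9 gave 18.5% and 17.8% of the ribosomal protein UMIs and in the Camp cluster 9.41% and 8.98%. A UMI of Rps9 could come from another gene only through shared sequence. In the last 300 bases of the Rps9 transcript chosen, 65.3% of the 50-base windows were found in no other gene. The windows that were shared were shared with 1 gene.

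**Figure D4:**
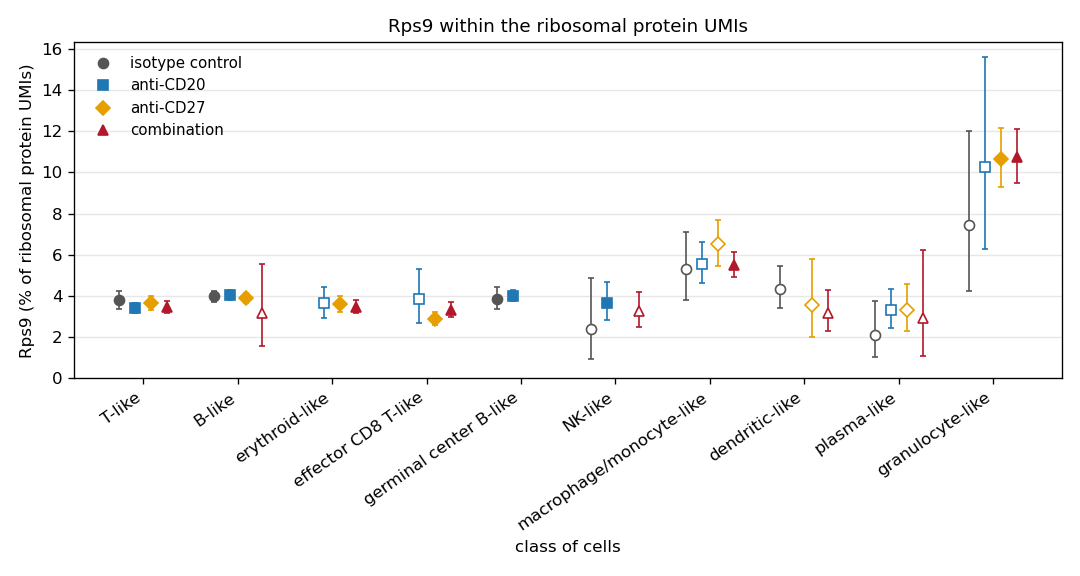
Percent of the ribosomal protein UMIs that came from Rps9 (y axis, linear from 0) by class and library, with exact 95% intervals; open symbols have fewer than 20 cells. Granulocyte-like cells are at 7.46% to 10.7%, macrophage/monocyte-like cells at 5.30% to 6.51%, and B-like and T-like cells with at least 20 cells near 4%.

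Other departures in the mix of members were smaller. Outside granulocyte-like cells, the middle 50% of members with at least 50 UMIs lay within 0.21 of 0 on the log2 scale in every class with at least 20 cells in at least 2 libraries. In granulocyte-like cells Rps3 (0.42) and Rps10 (0.33) were also above their part in other cells, as mean log2 ratios over the 2 libraries, and Rps26 (-0.74), Rplp1 (-0.67) and Rpl39 (-0.63) were below it. Rplp1 also made up a smaller part in germinal center B-like cells, with 3.07% in the control library where its other cells had 4.63%, and 3.27% after anti-CD20 where other cells had 5.23%. In T-like cells it made up a larger part in all 4 libraries, with 5.46%, 5.63%, 5.67% and 6.001% against 4.12%, 4.33%, 4.51% and 5.001% in other cells.

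In germinal center B-like cells, Rps21 (mean log2 ratio -0.42) and Rpl27a (-0.32) were also below their part in other cells, and Rpl7l1 (1.02), Rpl7a (0.89) and Rps13 (0.61) above it, the latter 3 with 51 to 72 UMIs in the class. Effector CD8 T-like cells had less Rps9 (-0.41) and Rps21 (-0.36), and more Rps13 (0.71), Rps27l (0.51) and Rpl13a (0.42). Erythroid-like cells had less Rpl34 (-0.41) and Rps15a (-0.40), and more Rps27l (0.83), Rpl11 (0.60) and Rpl14 (0.49). Rpl11 is known for binding Mdm2 when ribosome assembly fails, and it had 60 UMIs in the class. In T-like cells Rps3a3 (0.51) and Rpl12 (0.48) were above and Rpl7l1 (-0.97), Rps2 (-0.64) and Rpl36al (-0.49) below. By library, Rpl7l1 ran from -2.19 (isotype control, 3 UMIs) to -0.34 (anti-CD27). Rps2 ran from -1.25 (anti-CD27, 4 UMIs) to -0.06 (anti-CD20). B-like cells had less Rps27l (-1.45), Rps2 (-0.54) and Rpl36al (-0.52), and more Rpl17 (0.42) and Rpl35 (0.34). Among these, Rps2 had -1.08 in the isotype control, -0.02 after anti-CD20 and -0.52 after anti-CD27. Members were named here only if the sign was the same in every library with at least 20 cells of the class. That agreement is therefore fixed by the rule.

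Rps27l, a paralog of Rps27 known as a target of p53, was highest in erythroid-like cells among the classes with at least 20 cells in a library. It was at 220, 251, 336 and 330 CPM over all cells in library order. In erythroid-like cells it was at 615 CPM after anti-CD27 and at 552 after the combination, in effector CD8 T-like cells at 463 and 449, and in macrophage/monocyte-like cells of the combination at 439. In B-like cells it was at 114, 172 and 195 CPM in the first 3 libraries, and in T-like cells at 140 to 254. Erythroid-like cells held 2.36%, 3.50%, 11.1% and 15.8% of UMIs in library order and effector CD8 T-like cells 0.336%, 0.988%, 15.9% and 14.6%. Within T-like cells the log2 ratio of combination over anti-CD20 was -0.82 (-1.62 to -0.07), opposite to that over all cells, and within B-like cells that of anti-CD27 over isotype control was 0.78 (0.00 to 1.59). The ratio of combination over anti-CD20 over all cells also depended on deep cells: it was 1.02 with barcodes above 3000 genes kept and -0.46 with every cell thinned to 400 UMIs, while that of anti-CD27 over isotype control stayed between 0.57 and 0.78 under all 8 alternatives run.

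Rpl22l1, a paralog of the RNA-binding subunit protein Rpl22, was at 570, 634, 585 and 453 CPM in library order. Its parent Rpl22 was at about 2070 CPM over all cells. In T-like and B-like cells Rpl22l1 ranged from 643 to 916 CPM, and in granulocyte-like cells it was at 57.1 and 38.3 CPM. Rpl36al, an autosomal copy of the X-linked Rpl36a, was at 531, 547, 498 and 535 CPM, which differed little between libraries. In granulocyte-like cells it was at 106 and 82.9 CPM and in the other classes with at least 20 cells of a library at 332 to 734. Of the remaining members that are no subunit gene, Rpl7l1, a nucleolar relative of Rpl7, had 340 UMIs in all, Rps3a3 263, Rps19bp1 174, Rps4y2 27, Rps3a2 24, Rpl10l 14, Rpl3l 11 and Rpl39l 4. Rpl10l, Rpl3l and Rpl39l are known from testis or muscle, and 4 to 14 UMIs over 1770 cells are too few for a comparison.

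**Figure D5:**
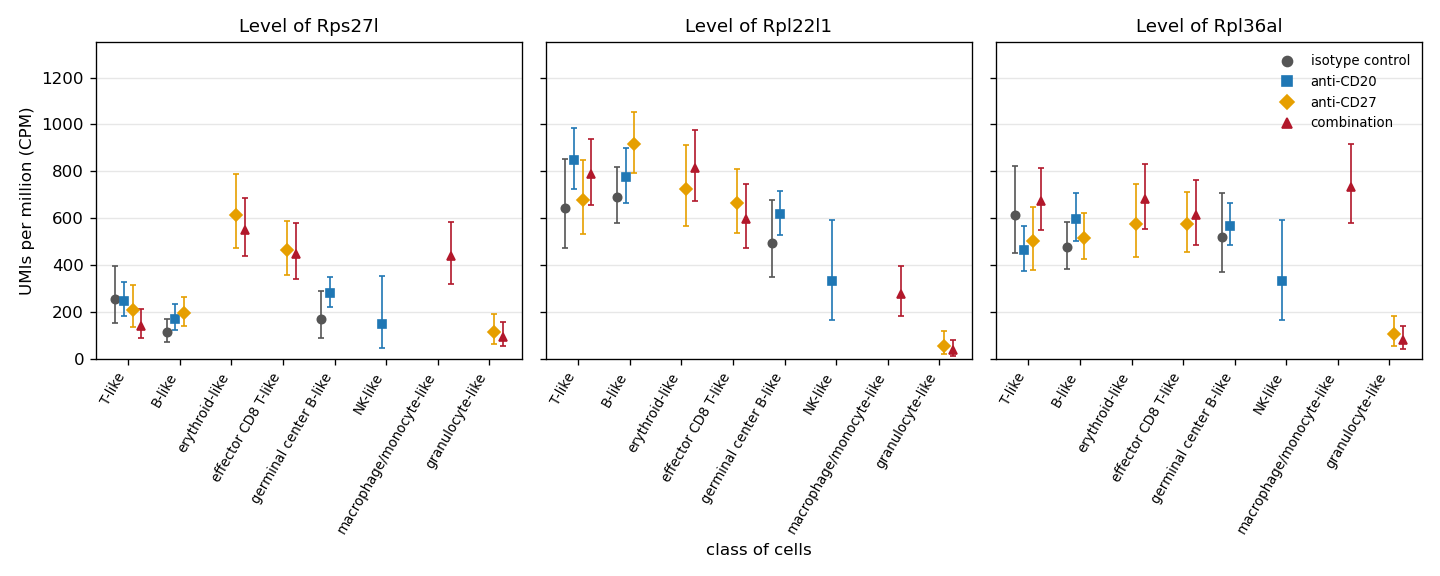
CPM (y axis, linear from 0) of Rps27l, Rpl22l1 and Rpl36al by class and library, with exact 95% Poisson intervals, for classes with at least 20 cells in the library. Rps27l is highest in erythroid-like, effector CD8 T-like and macrophage/monocyte-like cells, while Rpl22l1 reaches 916 CPM in B-like cells and all 3 are low in granulocyte-like cells.

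Many members have near-identical copies elsewhere in the genome, and how reads with several matches were counted is not given in the sources used here. Drop-seq reads are expected near the end of a transcript, so the last 300 bases of the annotated transcript chosen for each gene were searched. Whether the chosen transcript is the main one in these cells was not tested. The part of 50-base windows found there in no other gene ranged widely. The 21 subunit genes with under 20% such windows had a median of 174 UMIs, the 24 with 20% to 60% had 2514 and the 32 with at least 60% had 5672. The Spearman rho of this part with the UMIs was 0.49 over the 77 subunit genes, which is a description. Levels of members with few unique windows are therefore uncertain, among them Rpl9 (0% unique windows), Rps13 (11.95%) and Rps27 and Rpl36a, which had 63 and 174 UMIs in all. The part of shared sequence in these levels was not tested.

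Elongation factor and other TOP genes had a median ratio below that of all genes, but the part of them that was lower by the fold was about that of all genes. Of the subunit genes with other names, Gnb2l1 (Rack1) had a log2 ratio of combination over anti-CD20 of -0.35 (-0.46 to -0.24) and Fau -0.66 (-0.99 to -0.33). Of 15 elongation factor and other TOP genes 3 were lower by the fold, against 19.9% of all genes, and 0 higher, against 17.1%, with a median log2 ratio of -0.37 beside -0.08 for all genes. In that list Eef1a1, the main elongation factor, was at 3476, 2890, 2562 and 1732 CPM in library order, and its log2 ratio was -0.74 (-0.83 to -0.65). Pabpc1, the poly(A)-binding protein, had -0.44 (-0.51 to -0.36) and Eef1b2 -0.35 (-0.48 to -0.23).

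The counts of the lists further from the ribosome stand against the same 19.9% of all genes lower and 17.1% higher. Of 43 ribosome biogenesis genes with enough UMIs 8 were lower and 2 higher (median -0.16), of 30 initiation factor genes 2 were lower and 1 higher (-0.25), and of 72 mitochondrial ribosomal protein genes 7 were lower and 4 higher (-0.11). Nucleolin (Ncl), the biogenesis gene with the most UMIs, was at 1439, 1984, 1612 and 1736 CPM in library order. Mrpl33, of the mitochondrial ribosome, was at 195, 252, 307 and 386 CPM, so that it was lowest in the isotype control and highest in the combination. Of 12 regulators with enough UMIs, among them Rps6kb1 (S6 kinase), 3 were lower and 3 higher.

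In anti-CD27 over isotype control, where 19.1% of all genes were lower and 14.3% higher, 1 of the 15 elongation factor and other TOP genes was lower and 0 were higher (median -0.10), beside -0.11 for all genes. The medians were -0.06 for 42 biogenesis genes (4 lower, 2 higher), 0.09 for 30 initiation factor genes (1 lower, 1 higher) and -0.04 for 71 mitochondrial ribosomal protein genes (7 lower, 8 higher). Of 9 regulators 0 were lower and 1 was higher.

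Across classes, the translation lists did not all follow the ribosomal protein share. Elongation factor and other TOP genes took 1.49% of UMIs in B-like, 1.51% in T-like, 1.55% in erythroid-like and 0.223% in granulocyte-like cells, as means over the libraries with at least 20 cells. Biogenesis genes took 1.21% in erythroid-like cells and between 0.719% and 0.745% in B-like, T-like, effector CD8 T-like and germinal center B-like cells. Mitochondrial ribosomal protein genes took 0.840% in erythroid-like cells and 0.529% and 0.560% in B-like and T-like cells. Erythroid-like cells were thus above T-like and B-like cells for these lists but below them for the cytosolic ribosomal proteins. Proliferation genes took 1.14% of UMIs in erythroid-like and 1.12% in germinal center B-like cells and 0.0797% and 0.163% in B-like and T-like cells.

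Within a class, cells with transcripts of proliferation genes had a lower ribosomal protein share at equal depth in the lymphocyte classes compared. They had a higher one in the erythroid-like, granulocyte-like and macrophage/monocyte-like classes. Each of the latter classes pooled clusters of unlike share over all libraries. These shares were 9.61% and 5.04%, 1.71% and 0.881%, and 5.52% and 4.50%, in the order of the classes. The T-like and B-like classes also pooled clusters. The part of the clusters in the values below was not tested. Cells thinned to 400 UMIs were compared when they had at least 2 or 0 UMIs of 31 proliferation genes. In the effector CD8 T-like class the share was 6.64% in 25 proliferating cells and 7.84% in 20 others after anti-CD27 (log2 ratio -0.24, -0.40 to -0.08), and 6.45% in 22 and 6.87% in 15 after the combination (-0.09, -0.27 to 0.10). In germinal center B-like cells it was 7.34% in 64 and 8.27% in 31 after anti-CD20 (-0.17, -0.28 to -0.06), and 6.44% in 22 and 7.21% in 13 in the isotype control (-0.16, -0.35 to 0.03). In 11 proliferating T-like cells of the combination it was 9.57% and in 92 others 11.1% (-0.21, -0.36 to -0.07). Over B-like cells of all libraries it was 8.69% in 21 and 10.1% in 387 (-0.21, -0.32 to -0.10). Granulocyte-like cells went the other way after anti-CD27, with 1.79% in 12 cells and 0.757% in 35 (1.24, 0.82 to 1.67). So did erythroid-like cells of all libraries, with 9.14% in 66 and 4.19% in 13 (1.12, 0.92 to 1.33), and macrophage/monocyte-like cells of all libraries, with 6.27% in 15 and 4.92% in 55 (0.35, 0.18 to 0.52). Values over all libraries do not separate the treatments. Without thinning these pairs were, in the order given, 7.88% and 9.29%, 7.01% and 6.81%, 7.53% and 7.73%, 6.77% and 6.92%, 9.71% and 11.9%, 9.53% and 10.6%, 2.22% and 0.848%, 9.31% and 3.91%, and 6.50% and 4.77%, so that the effector CD8 T-like pair of the combination changed its order.

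B-like cells with a UMI of Pcp4, Il9r or Ccr6, genes that mark another grouping of the B cells, had a higher ribosomal protein share than those without, with 10.5% in 67 cells and 9.91% in 114 in the isotype control, 11.7% in 59 and 10.7% in 55 after anti-CD20, and 12.7% in 42 and 10.02% in 144 after anti-CD27. They were also deeper, with medians of 1159, 2231 and 1326 UMIs against 807.5, 1050 and 870. The part of depth in the difference of share was not tested. Over 13 alternatives its log2 ratio ran from 0.03 to 0.28 in the isotype control and from 0.06 to 0.55 after anti-CD20. After anti-CD27 it ran from 0.17 to 0.34.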

How the data were processed

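Drop-seq libraries of splenocytes were compared, 1 per treatment. The authors deposited raw UMI counts per gene and barcode, made, per the submitters' processing notes, with bcl2fastq, STAR 2.5.0a and the mm10 build; the counts are not scaled. The gene names of the table were used as given. Barcodes with 300 to 3000 detected genes were kept. The members and gene lists were chosen with earlier results of these data known, and the rule that names clusters was set with clusters of these data seen.

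Counts per cell were scaled to 10000 and log-transformed, and 2000 variable genes without the members, the listed genes and haemoglobin, mitochondrial and immunoglobulin genes gave 30 components, 15 neighbours and Leiden clusters (scanpy 1.11.5, leidenalg 0.10.2, resolution 1.0, seed 0). A cluster took the class with the most markers, at least 3, among its top 30 genes by fold; NK-like needed Cd3 genes in under 30% of cells and effector CD8 T-like needed Cd8 genes in at least 20%, and a T-like cluster whose top 10 genes held more effector markers became effector CD8 T-like. Doublets (16 called) were kept.

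UMIs were summed per library and class, and classes with at least 20 cells in both libraries were compared. Shares have Clopper-Pearson, CPM exact Poisson and ratios exact conditional intervals, all 95% and for counting error only; 1 library per treatment allows no test. Genes named are the 10 members with most UMIs, the 5 highest and 5 lowest ratios per main comparison (at least 100 UMIs), the 3 members most above and below their part per class (at least 50 UMIs, the same sign in every library), all paralogs with their parents, and the 3 list genes with most UMIs; members named as uncertain in level and the sequence examples were picked after values were seen. Some genes that this rule would name are not reported here. Differences between libraries were split into make-up and within-class parts by averaging the weights of both libraries. The split used classes of any size, and a class absent from 1 library was given no difference within it. For shared sequence, a protein-coding transcript was chosen per member, curated RefSeq matches first, and its windows were searched in GENCODE vM21 transcripts. Start sites were taken from RefSeq. The ratio intervals were tested on simulated Poisson counts without spread between cells, so that test does not cover such spread. Alternatives included TMM factors (edgeR 4.0.16, R 4.3.3). Python 3.11.15, numpy 2.4.6 and scipy 1.17.1 were used.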

Additional observations from a re-analysis of the deposited data

Results flagged for a closer look

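Some classes had ratios of opposite sign in the same comparison, and none of these differences was tested, since each treatment is 1 library. For anti-CD27 over isotype control, the log2 ratio of the ribosomal protein share was 0.09 in B-like cells and -0.19 in T-like cells. For combination over anti-CD27, the value was 0.21 in T-like cells, -0.15 in the effector CD8 T-like class and -0.05 in the erythroid-like class. Within the Cd4 cluster of T-like cells the 2 ratios were -0.06 and 0.25.

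Outside the members, 25 rows named as pseudogenes of ribosomal protein genes held 8484 UMIs in the cells used, which is more than the 3 counts that a count of 0 allows. In library order they held 1504, 3058, 2202 and 1720 UMIs. From which genes these reads came was not tested.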

How the results depend on the processing

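No paired analysis was possible because each treatment is 1 library. For the same reason no replicate could be left out. Across 34 results and 395 alternative values, 221 of 232 log2 ratios kept their direction and 11 did not: anti-CD20 over isotype control over all cells under 5 alternatives, whose interval spans 0, the equal make-up value of anti-CD27 over isotype control under 4 alternatives, the T-like value of combination over anti-CD20 with at least 500 genes, and Rps27l in the latter comparison after thinning (-0.46). The granulocyte-like value of Rps9 (log2 1.33 to 1.57) and the T-like value of combination over anti-CD27 (0.10 to 0.27) kept theirs under all alternatives run. Counts of members past the fold also moved: 33 lower members after the combination became 7 to 36, and 13 after anti-CD27 became 2 to 16. The share of all genes past the fold was not counted under the alternatives, here or below. Depth limits the single members most: 12 had fewer than 100 UMIs in all. For the values listed next, which moved beyond their counting interval or by over 1.5 times, the cause was not tested.

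With no upper limit on genes per cell, the share was 9.19% (control library), 9.09% (anti-CD20), 8.19% (anti-CD27), 7.997% (the combination), 7.41% (germinal center B-like cells), 8.71% (effector CD8 T-like cells) and 10.02% (erythroid-like cells), small subunit genes gave 46.3% of member UMIs, the log2 ratio became -0.18 (all cells) and -0.12 (equal class make-up) for combination over anti-CD20, -0.17 (all cells) and -0.031 (equal class make-up) for anti-CD27 over isotype control and -0.034 (all cells) for combination over anti-CD27, and the genes lower by the fold were 10 of the members for combination over anti-CD20 and 1 of the TOP and elongation genes for combination over anti-CD20. With at least 500 genes per cell, the share was 9.19% (control library), 7.82% (anti-CD27), 6.5% (the combination), 11.4% (T-like cells), 11.1% (B-like cells), 8.56% (erythroid-like cells) and 1.61% (granulocyte-like cells), and the log2 ratio became -0.47 (all cells) and 0.016 (T-like) for combination over anti-CD20, -0.022 (equal class make-up) for anti-CD27 over isotype control and -0.033 (all cells) for anti-CD20 over isotype control. Without haemoglobin and mitochondrial genes in the total, the share was 9.42% (control library), 9.69% (anti-CD20), 8.24% (anti-CD27), 6.87% (the combination), 11.9% (T-like cells), 11.6% (B-like cells), 7.62% (germinal center B-like cells), 8.22% (effector CD8 T-like cells) and 10.1% (erythroid-like cells), and the log2 ratio became -0.19 (all cells), 0.14 (B-like) and 0.050 (equal class make-up) for anti-CD27 over isotype control and 0.041 (all cells) for anti-CD20 over isotype control. Without immunoglobulin genes in the total, the share was 9.18% (control library), 9.21% (anti-CD20), 7.81% (anti-CD27) and 10.9% (B-like cells), and the log2 ratio became -0.53 (all cells) for combination over anti-CD20 and -0.29 (all cells) for combination over anti-CD27. With the mean over cells, the share was 9.33% (anti-CD20), 7.95% (anti-CD27), 6.58% (the combination), 10.8% (T-like cells), 10.2% (B-like cells), 7.21% (effector CD8 T-like cells), 8.001% (erythroid-like cells) and 1.1% (granulocyte-like cells), small subunit genes gave 47.6% of member UMIs, and the log2 ratio became -0.50 (all cells), -0.10 (T-like) and -0.25 (equal class make-up) for combination over anti-CD20, -0.17 (all cells) for anti-CD27 over isotype control and 0.064 (all cells) for anti-CD20 over isotype control. With cells thinned to 400 UMIs, the share was 9.33% (anti-CD20), 7.98% (anti-CD27), 6.55% (the combination), 10.2% (B-like cells), 7.06% (effector CD8 T-like cells), 7.98% (erythroid-like cells) and 1.08% (granulocyte-like cells), small subunit genes gave 47.3% of member UMIs, the log2 ratio became -0.51 (all cells), -0.091 (T-like), -0.24 (equal class make-up) and -0.46 (Rps27l) for combination over anti-CD20, -0.18 (all cells) and -0.033 (equal class make-up) for anti-CD27 over isotype control and 0.048 (all cells) for anti-CD20 over isotype control, and the genes lower by the fold were 6 of the TOP and elongation genes for combination over anti-CD20 and 0 of the TOP and elongation genes for anti-CD27 over isotype control. With called doublets removed, the share was 11.3% (T-like cells), 7.36% (germinal center B-like cells), 7.64% (effector CD8 T-like cells) and 8.59% (erythroid-like cells), and the log2 ratio became -0.0018 (T-like) for combination over anti-CD20 and -0.25 (T-like) and -0.034 (equal class make-up) for anti-CD27 over isotype control. With the shallower of barcodes 1 base apart removed, the share was 11.2% (T-like cells) and 7.59% (germinal center B-like cells), and the log2 ratio became -0.00088 (T-like) and -0.048 (equal class make-up) for combination over anti-CD20. Without paralogs and other genes that are no subunit, the share was 8.79% (control library), 8.76% (anti-CD20), 7.5% (anti-CD27), 6.21% (the combination), 10.9% (T-like cells), 10.6% (B-like cells), 7.01% (germinal center B-like cells), 7.59% (effector CD8 T-like cells) and 8.12% (erythroid-like cells), and small subunit genes gave 47.2% of member UMIs. With TMM factors, the log2 ratio became -0.40 (all cells) for combination over anti-CD20, -0.056 (all cells), -0.055 (T-like) and 0.22 (B-like) for anti-CD27 over isotype control and 0.091 (all cells) for anti-CD20 over isotype control, and the genes lower by the fold were 1 of the TOP and elongation genes for combination over anti-CD20 and 8 of the members for anti-CD27 over isotype control. With the median over members, the log2 ratio became -0.12 (T-like) for combination over anti-CD20, -0.28 (all cells), -0.24 (T-like) and 0.049 (B-like) for anti-CD27 over isotype control, -0.031 (all cells) for anti-CD20 over isotype control and -0.23 (all cells) for combination over anti-CD27. At Leiden resolution 0.5, the share was 7.52% (germinal center B-like cells), and the log2 ratio became 0.073 (equal class make-up) for anti-CD27 over isotype control. At Leiden resolution 2, the share was 8.61% (erythroid-like cells). With 1000 variable genes, the share was 10.97% (B-like cells) and 7.55% (germinal center B-like cells), and the log2 ratio became -0.072 (equal class make-up) for combination over anti-CD20 and 0.047 (equal class make-up) for anti-CD27 over isotype control. With classes from the markers of each cell, the share was 10.5% (T-like cells), 9.69% (B-like cells), 8.12% (erythroid-like cells) and 1.81% (granulocyte-like cells), and the log2 ratio became -0.26 (T-like) and -0.28 (equal class make-up) for combination over anti-CD20 and -0.28 (T-like), 0.27 (B-like) and 0.062 (equal class make-up) for anti-CD27 over isotype control. With 2-fold as the limit, the genes lower by the fold were 7 of the members for combination over anti-CD20, 0 of the TOP and elongation genes for combination over anti-CD20, 2 of the members for anti-CD27 over isotype control and 0 of the TOP and elongation genes for anti-CD27 over isotype control. With clusters as the groups of equal make-up, the log2 ratio became -0.12 (equal class make-up) for combination over anti-CD20 and 0.058 (equal class make-up) for anti-CD27 over isotype control.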

Other observations

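Barcodes outside the limits on genes also carried ribosomal protein transcripts. The 1377 barcodes with fewer than 300 genes had a share of 2.32%, and haemoglobin transcripts took 53.5% of their UMIs; without haemoglobin the share was 5.001%. In library order it was 3.0004%, 1.72%, 2.84% and 2.19%. The 51 barcodes with more than 3000 genes had 11.1%, and 11.4%, 11.3%, 10.6% and 11.3% by library, from 2, 5, 14 and 30 barcodes. Small subunit genes gave 44.7% of the ribosomal protein UMIs in the latter and 47.0% in the former.

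Plasma-like cells, a class with fewer than 20 cells in every library, had a share of 3.05% (2.94% to 3.15%) over 35 cells, and dendritic-like cells 7.74% (7.51% to 7.97%) over 26. An unnamed cluster led by the chemokine gene Cxcl9 and by Cfb, Clec4a3 and Aif1 had 4.81% after anti-CD27 and 4.33% after the combination. Rps9 gave 6.04% and 5.69% of its ribosomal protein UMIs in these libraries.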
